A study of Mus musculus with 7 samples.

Results

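The immunoglobulin genes of mouse skin were the variable (V) segments and constant (C) genes of the heavy, kappa and lambda chains, together with Jchain. Members were the genes whose symbols begin with Ighv, Ighg, Igha, Ighm, Ighd, Ighe, Igkv, Igkc, Iglv or Iglc and that had at least 1 count in any mouse, with pseudogenes, D and J segments and the unrelated Ighmbp2 left out and Jchain added. The rule gave 73 members among the 55450 genes of the count table, of which 30645 had a count. Of 232 annotated genes of these families, 159 had no count in any mouse. The members were 22 of 115 heavy V segments, 37 of 100 kappa V segments, 2 of 3 lambda V segments, 7 of 8 heavy C genes, 3 of 4 lambda C genes, Igkc and Jchain. The members were thus chosen by their counts in these libraries, so the levels below are a description.

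Bulk RNA sequencing had been done on the skin of 7 male C57BL/6 wild type mice aged 24 months, with 1 library per mouse. Dorsal hair had been removed from all of them, and either 5 μM of ABT-263, an inhibitor of the Bcl-2 family used as a senolytic, or its vehicle DMSO had been applied under a semi-occlusive dressing for 5 days. Mice 480, 481, 482 and 483 received DMSO, and mice 476, 477 and 478 received ABT-263. The comparison asks whether the transcripts of aged skin differ after topical ABT-263. The 4 DMSO libraries held 20344364 to 26824123 counted read pairs and the 3 ABT-263 libraries 27325963 to 43562330, so the ABT-263 libraries were the deeper. Markers of skin were present in every library, with summed levels of 8 keratinocyte genes from 19513 to 68057 CPM (counts scaled to library sizes corrected with TMM factors), and 8 skeletal muscle genes summed to between 27647 and 70787 CPM.

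An antibody is built from heavy and light chains, and each chain joins a V segment, chosen in each B cell by rearrangement of its DNA, to a constant region. The heavy C gene sets the class: Ighm encodes the chain of IgM, Ighd that of IgD, the Ighg genes those of IgG, Igha that of IgA and Ighe that of IgE. Jchain encodes the small protein that links IgM or IgA units into polymers and is made by antibody-secreting cells. All descendants of a B cell carry its rearranged V segments, and a cell that has become a plasma cell holds far more of this RNA than a resting B cell. In a bulk library, more cells of a type and more RNA per cell cannot be told apart.

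The V counts lay mostly on a pair of segments, Ighv11-2 of the heavy chain and Igkv14-126 of the kappa chain, and mostly in a single mouse. The exon of each is shown beside its closest named relative, since reads that fall where the sequences are alike cannot be assigned to one gene. The sequences are those of GENCODE M21 on GRCm38, on the coding strand and 5′ to 3′, and capitals mark the bases at which the 2 segments of a pair differ. Ighv11-2 was read from chr12:114048248-114048547 and Ighv11-1 from chr12:113981886-113982185, both on the minus strand and cut to the first 300 bases of the exon. Igkv14-126 was read from chr6:67896345-67896642 and Igkv14-111 from chr6:68256572-68256869, both on the plus strand.
Ighv11-2: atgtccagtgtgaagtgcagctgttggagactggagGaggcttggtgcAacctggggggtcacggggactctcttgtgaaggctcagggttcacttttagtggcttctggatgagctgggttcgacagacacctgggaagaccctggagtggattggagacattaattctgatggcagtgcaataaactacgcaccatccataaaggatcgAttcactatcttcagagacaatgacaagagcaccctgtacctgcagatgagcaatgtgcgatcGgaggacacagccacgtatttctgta
Ighv11-1: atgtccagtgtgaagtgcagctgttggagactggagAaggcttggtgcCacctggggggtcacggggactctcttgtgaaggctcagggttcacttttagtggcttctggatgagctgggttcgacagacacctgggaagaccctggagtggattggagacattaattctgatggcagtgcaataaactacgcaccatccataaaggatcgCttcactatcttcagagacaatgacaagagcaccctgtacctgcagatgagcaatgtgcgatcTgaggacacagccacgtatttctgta
Igkv14-126: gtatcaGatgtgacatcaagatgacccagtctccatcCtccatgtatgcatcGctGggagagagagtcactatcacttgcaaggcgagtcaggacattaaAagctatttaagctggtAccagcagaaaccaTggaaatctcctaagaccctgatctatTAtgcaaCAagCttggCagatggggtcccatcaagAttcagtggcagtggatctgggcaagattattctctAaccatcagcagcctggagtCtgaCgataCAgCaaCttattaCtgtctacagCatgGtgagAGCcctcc
Igkv14-111: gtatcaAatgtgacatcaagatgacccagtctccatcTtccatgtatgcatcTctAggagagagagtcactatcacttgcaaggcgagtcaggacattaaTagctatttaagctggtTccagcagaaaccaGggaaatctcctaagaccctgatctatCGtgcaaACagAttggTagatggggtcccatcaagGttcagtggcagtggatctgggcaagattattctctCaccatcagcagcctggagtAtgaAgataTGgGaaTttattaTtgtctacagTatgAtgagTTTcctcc
The exons of Ighv11-2 and Ighv11-1 differed at 4 of 307 bases and were 98.7% identical, whereas those of Igkv14-126 and Igkv14-111 differed at 27 of 298 bases and were 90.9% identical. In Ighv11-2, 51.2% of the 50-base stretches occurred in no other immunoglobulin transcript of the annotation, against 100% in Igkv14-126. Even so, Ighv11-1 and Igkv14-111 each had 2 counts in all, both in mouse 476. The 2 leading segments are known as a pair from B-1 cells whose antibodies bind phosphatidylcholine.

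Ighv11-2 had 4132 counts in mouse 476, 3 in mouse 477 and 0 in mouse 478, and it had 0 in each of the 4 DMSO mice. Igkv14-126 had 12193, 11 and 4 counts in mice 476, 477 and 478, and 0, 0, 1 and 14 counts in DMSO mice 480 to 483. Both segments were therefore high in 1 mouse, and outside it the groups overlapped, with DMSO mouse 483 above mouse 477 and mouse 478 for Igkv14-126. Together the 2 segments held 92.6% of the 17656 V counts of all 7 mice and 93.9% of the 17387 in mouse 476. The other 6 mice together had 269 V counts, and 98.5% of all V counts came from mouse 476.

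In mouse 476, Ighv11-2 was 96.5% of 4283 heavy V counts (exact 95% interval 95.9% to 97.0%), Igkv14-126 was 95.7% of 12746 kappa V counts (95.3% to 96.0%) and Iglv1 was 97.2% of 358 lambda V counts (94.9% to 98.7%). These intervals cover counting error only, since read pairs are not independent molecules. The effective number of segments, which is the inverse Simpson index and equals 1 when a single segment holds all counts, was 1.07 for heavy V and 1.09 for kappa V. Counts off the leading segments were also uneven. Of 151 heavy V counts outside Ighv11-2, 114 were on Ighv6-3, and the 12 segments concerned had an effective number of 1.71. The 553 kappa V counts outside Igkv14-126 were spread over 22 segments with an effective number of 4.15, led by Igkv12-46 with 194 and Igkv5-43 with 176. Ighv6-3, Igkv12-46 and Igkv5-43 had 0 counts in the other 6 mice, in which Iglv1 had 0 to 4. Igkv5-43 shares most of its sequence with other segments, and 36.1% of its 50-base stretches were its own, so its counts are uncertain.

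**Figure D1:**
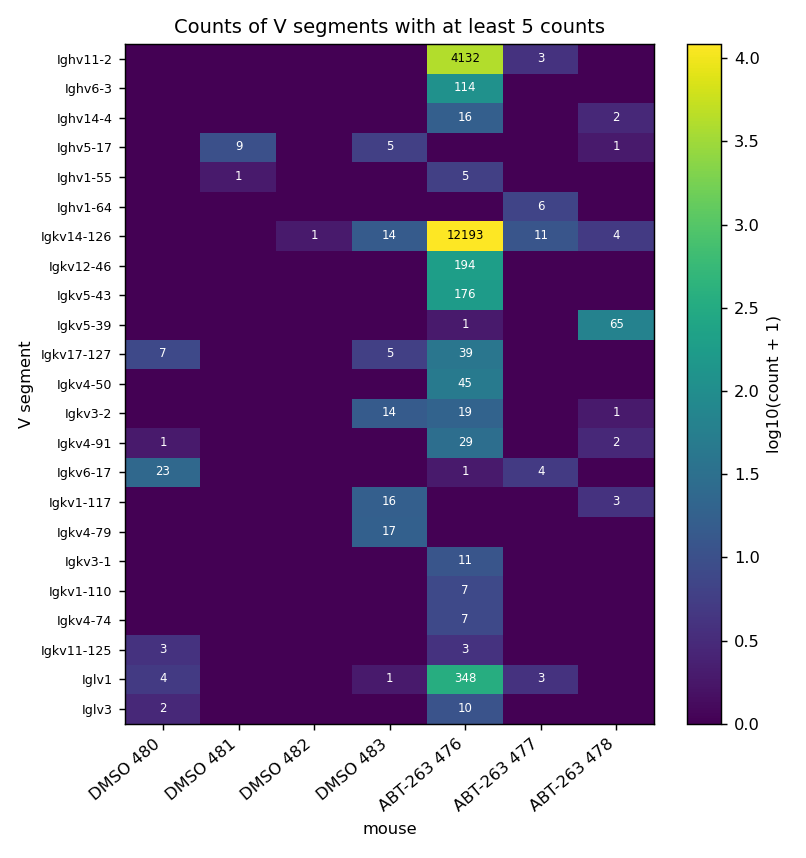
Counts of the V segments with at least 5 counts in all, with a row for each segment and a column for each mouse; colour gives log10(count + 1), the number in a cell is the count and an empty cell is 0. Mouse 476 holds 4132 counts of Ighv11-2 and 12193 of Igkv14-126, and elsewhere the highest count is 65, for Igkv5-39 in mouse 478.

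In the other mice few V reads were found, and mostly a different segment led in each. Of kappa V counts, DMSO mouse 480 had 34, led by Igkv6-17 with 23, and DMSO mouse 483 had 68 over 6 segments, led by Igkv4-79 with 17, and with 14 each on Igkv3-2 and Igkv14-126. ABT-263 mouse 478 had 78, of which 65 were on Igkv5-39, and ABT-263 mouse 477 had 27, of which 11 were on Igkv14-126. DMSO mouse 482 had 6 kappa V counts, with at most 2 on a segment, and DMSO mouse 481 had 0. The effective number of kappa V segments was 1.97 in mouse 480, 4.79 in mouse 483, 4.58 in mouse 477 and 1.43 in mouse 478. At 27 to 78 counts these values describe a handful of reads, and no order among the mice is drawn from them.

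Heavy V counts outside mouse 476 were fewer still, between 0 and 13 per mouse. Ighv5-17 led in DMSO mice 481 (9 of 11 counts) and 483 (5 of 9), Ighv8-12 led in DMSO mouse 480 (4 of 6) and Ighv1-64 in ABT-263 mouse 477 (6 of 13). DMSO mouse 482 had 0. The highest count in ABT-263 mouse 478 was 2 of 7, shared by more than 1 segment. Pooled over these 6 mice, the 269 V counts fell on 40 segments with an effective number of 9.89, against 1.87 for the 17656 counts of all 7 mice.

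Most V members rested on very few reads. Of the 61 V members, 43 had fewer than 10 counts in all and 6 had at least 100, namely Igkv14-126, Ighv11-2, Iglv1, Igkv12-46, Igkv5-43 and Ighv6-3. Of the same 61, 38 had a count in mouse 476, 21 had counts there alone and 23 had none there. Among all 73 members, 10 had a single count in the whole table, 41 were found in 1 mouse and 5 in every mouse. The median share of unique 50-base stretches was 76.4% for heavy V members against 77.5% for the 93 heavy V segments without a count. For kappa V the medians were 72.3% for members and 80.7% for the 63 segments without a count.

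In the kappa locus Igkv14-126 lay far from Igkv12-46 and Igkv5-43, which lay near each other. Counted from the constant genes outward, Ighv11-2 is segment 28 of 115 in the heavy locus on chromosome 12 and Ighv6-3 is segment 45. In the kappa locus on chromosome 6, Igkv14-126 is segment 92 of 100, about 2830 kb from Igkc. Igkv12-46 and Igkv5-43 are segments 39 and 36, about 961 and 902 kb from it. Igkv4-50, with 45 counts, all in mouse 476, is segment 41, and Igkv5-39, which led in mouse 478, is segment 34. Igkv17-127, the neighbour of Igkv14-126, had 39 counts in mouse 476, 7 in mouse 480 and 5 in mouse 483.

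Constant genes carried the larger part of the immunoglobulin reads. Ighm and Igkc together held 103742 of the 126415 member counts, or 82.1%, and 90.0% of those outside mouse 476. Ighm, on chromosome 12 from 113418558 to 113422730, had 2082, 360, 643 and 2223 counts in DMSO mice 480 to 483 and 50676, 1089 and 2497 in ABT-263 mice 476, 477 and 478. Mouse 476 stood far above the rest at 1812 CPM, and the others overlapped between 15.2 and 91.3 CPM, with ABT-263 mice 477 (27.4 CPM) and 478 (53.6 CPM) inside the DMSO range. Igkc, the only kappa C gene, on chromosome 6 from 70726435 to 70726966, had 1642, 7, 304 and 1358 counts in the DMSO mice and 40355, 104 and 402 in the ABT-263 mice. The 7 counts of DMSO mouse 481 stood against 360 of Ighm in the same library. Igkc lies within a longer non-coding gene annotated in GENCODE M21 on the same strand, so that its reads are not assigned with certainty.

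Jchain, on chromosome 5 from 88519809 to 88527891, had 178, 4, 12 and 85 counts in the DMSO mice and 3715, 16 and 35 in ABT-263 mice 476, 477 and 478. It followed the same order as Igkc within the DMSO mice, and 91.8% of its counts came from mouse 476. Summed over all members, mouse 476 reached 4015 CPM against 19.1 to 169 CPM in the other 6 mice, 23.7 times the highest of them. The corresponding ratio was 18.8 for the heavy C genes, 21.5 for Igkc, 18.2 for Jchain and 194 for all V segments. With Ighv11-2 and Igkv14-126 left out, it was 14.4 for the remaining 59 V segments.

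**Figure D2:**
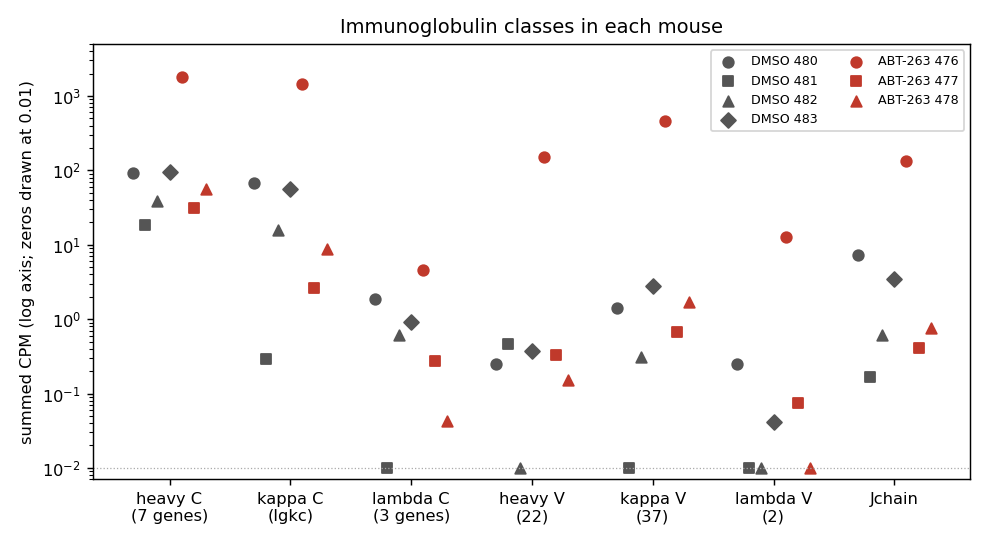
Summed CPM of each immunoglobulin class (log axis, zeros drawn at 0.01) in each mouse, grey for DMSO and red for ABT-263, with a symbol for each mouse. Mouse 476 is the highest point in every class, and ABT-263 mice 477 and 478 lie within the range of the DMSO mice for heavy C, Igkc and Jchain.

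The other heavy classes did not follow Ighm. Heavy C genes other than Ighm summed to 1.29 CPM in mouse 476, below the 2.53 to 5.69 CPM of the other 6 mice. Igha had 91, 28, 26 and 56 counts in DMSO mice 480 to 483 and 31, 134 and 72 in ABT-263 mice 476, 477 and 478, with full overlap of the groups. Ighm made up 99.9% of heavy C counts in mouse 476 and 83.3% to 95.5% in the others. Igha was 0.0611% of the heavy C counts in mouse 476, and 2.39% to 10.7% in the other mice.

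The IgG genes were low throughout. Ighg2b had 18, 1, 65 and 10 counts in the DMSO mice and 0 in each of the 3 ABT-263 mice, although the ABT-263 libraries were deeper. Its group level was 1.02 CPM after DMSO, and a count of 0 over the ABT-263 group, which allows 3 counts or 0.0263 CPM, makes it at least 38.9-fold lower. That bound covers counting error only, it was 15.2-fold without DMSO mouse 482, which held 65 of the 94 counts, and DMSO mouse 481 had a single count. Ighg2b was the only member whose groups did not overlap, whereas every ABT-263 mouse lay below every DMSO mouse in 18.4% of all genes tested and in 11.7% of genes with a count. No member had every ABT-263 mouse above every DMSO mouse, which 18.7% of genes tested did.

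Ighg2c had 22, 27, 2 and 41 counts in the DMSO mice and 2, 4 and 29 in the ABT-263 mice. Ighg1 had 5 counts in all, in DMSO mice 481 and 483, and Ighg3 had none. The 3 detected IgG genes made up 1.80% to 9.02% of heavy C counts in the DMSO mice, 0.00394% in mouse 476, 0.319% in mouse 477 and 1.11% in mouse 478. Ighd, the IgD gene of resting B cells, had 3, 15, 7 and 12 counts in the DMSO mice and 0, 16 and 13 in the ABT-263 mice. Ighe had 5 counts in DMSO mouse 480 and 3, 10 and 4 in the ABT-263 mice.

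Lambda constant genes were a small part of the light chains. Iglc1 had 37, 0, 0 and 6 counts in the DMSO mice and 28, 2 and 0 in the ABT-263 mice, Iglc2 had 5, 0, 4 and 11 and then 79, 3 and 0, and Iglc3 had 3, 0, 8 and 5 and then 21, 6 and 2. Their share of light chain C counts was 0.316% in mouse 476, 9.57% in mouse 477 (11 of 115 counts) and at most 3.80% in the others. Iglv1, with 348 counts in mouse 476 and 4, 0, 0 and 1 in the DMSO mice, and Iglv3, with 10 in mouse 476 and 2 in mouse 480, were the lambda V members. Iglv1 is 97.0% identical in its exon to Iglv2, which had no count.

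The proportions of heavy to light chain and of V to C reads differed between mice. Per kb of exon, Ighm was at 961 and Igkc at 2712 CPM in mouse 476, a ratio of 0.354. The ratio was 0.358, 0.597 and 0.462 in DMSO mice 480, 482 and 483, so in these 4 mice Igkc was the higher per length. It was 14.5 in DMSO mouse 481, 2.95 in ABT-263 mouse 477 and 1.75 in ABT-263 mouse 478, where Ighm was the higher. The mice of 1 treatment thus lay on both sides of equality. In mouse 476, Igkv14-126 stood at 1218 CPM per kb, Ighv11-2 at 320 and Jchain at 52.8.

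**Figure D3:**
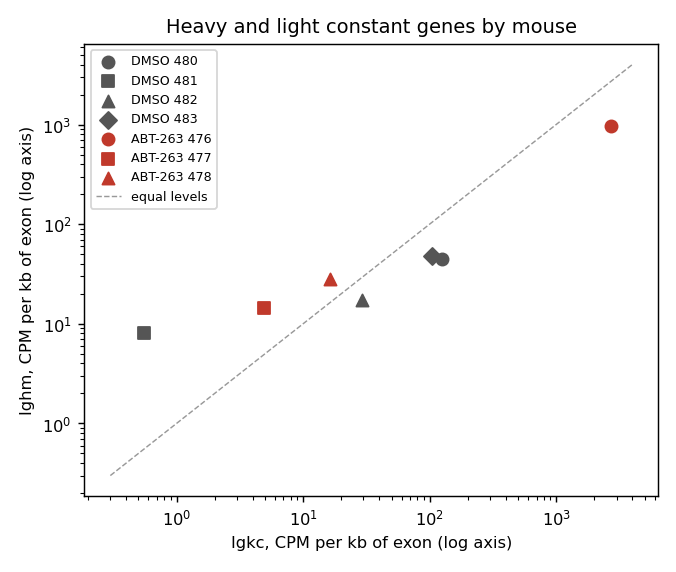
Ighm against Igkc in CPM per kb of exon, both on log axes, with a point for each mouse and a dashed line of equal levels. DMSO mice 480, 482 and 483 and ABT-263 mouse 476 lie below the line, and DMSO mouse 481 and ABT-263 mice 477 and 478 lie above it.

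V segments made up 24.0% of kappa V plus Igkc counts in mouse 476, 20.6% in mouse 477 (27 of 131, exact 95% interval 14.0% to 28.6%) and 16.2% in mouse 478 (78 of 480, 13.1% to 19.9%). In DMSO mice 480, 482 and 483 the share was 2.03%, 1.94% and 4.77%, with intervals reaching at most 6.01%. DMSO mouse 481, with 0 of 7 counts, had an exact 95% interval reaching 41.0%, so it fixed no value. Of 3 DMSO mice with a usable number of counts, then, all lay below all 3 ABT-263 mice, with no test made, since the share is a sum over the chosen members. The leading kappa segment was Igkv14-126 in mice 476 and 477 and Igkv5-39 in mouse 478. Igkv5-39 held 65 of the 78 kappa V counts of mouse 478, so the place of that mouse above the DMSO mice rests on a single segment.

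For the heavy chain there was no such separation. The V share was 7.79% in mouse 476, 1.03% in mouse 477 and 0.267% in mouse 478. It was 0.269%, 2.48%, 0% and 0.382% in DMSO mice 480 to 483. For the 0 of 743 counts of mouse 482, the exact 95% interval reached 0.495%.

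**Figure D4:**
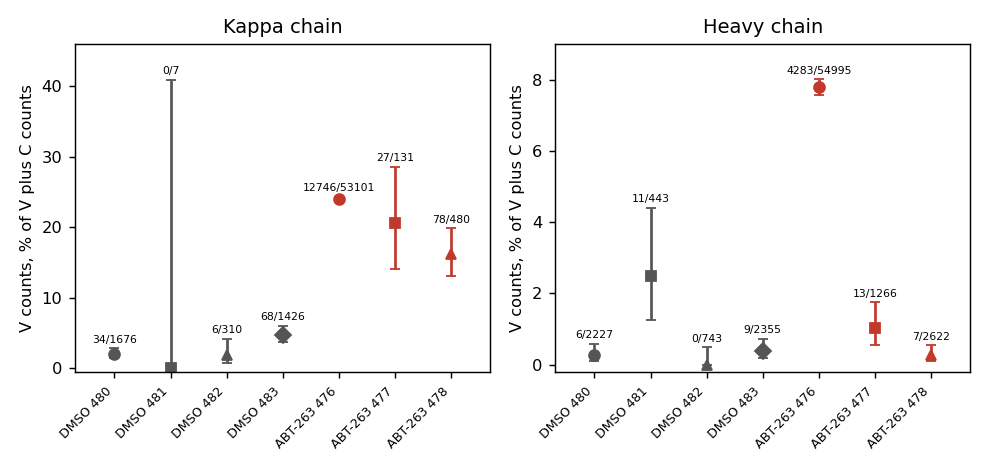
V counts as a percentage of V plus C counts in each mouse, for the kappa chain (left) and the heavy chain (right), with exact 95% binomial intervals as bars and the counts printed above each point. For kappa, ABT-263 mice 476, 477 and 478 are at 16.2% to 24.0%, the DMSO points are at most 4.77%, and the interval of DMSO mouse 481 spans most of the axis.

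In the fit across all genes, no member passed. The edgeR quasi-likelihood test called 0 of the 7 members it tested at an adjusted p under 0.05, against 24.2% of all 17959 genes tested (12.4% higher and 11.7% lower after ABT-263), and 2 members had an unadjusted p under 0.05, against 40.1% of all genes. The remaining 66 members were too low in too many mice to be tested. The median log2 fold change of ABT-263 over DMSO was -0.08 over the 7 members and 0.002 over all genes.

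Mean Ighm was 56.2 ± 37.8 CPM in the DMSO mice (SD, n = 4) and 631 ± 1023 CPM in the ABT-263 mice (SD, n = 3). The log2 fold change was 3.49 with a standard error of 1.43 (edgeR adjusted p = 0.114). Without mouse 476 the value was -0.47. For Igkc the log2 fold change was 3.80 with a standard error of 2.18 (edgeR adjusted p = 0.239) and -2.62 without mouse 476, and for Jchain it was 3.93 with a standard error of 2.00 (adjusted p = 0.190) and -2.31 without that mouse. The direction of all 3 genes was thus set by mouse 476.

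Ighg2b had an edgeR adjusted p of 0.0508, and its fitted fold change depends on the prior count because 1 group is at 0. The estimates for Igha (-0.08, standard error 0.52), Ighg2c (-1.78, standard error 0.94) and Ighd (-0.75, standard error 0.88) came with edgeR adjusted p-values of 0.921, 0.195 and 0.558. Calls among the members depended on the tool: the DESeq2 Wald test with its default filters called Ighg2b (adjusted p = 6.1e-05, against 25.9% of genes called), and without those filters it called Ighg2b, Igkv14-126, Ighv11-2, Ighv6-3, Igkv12-46 and Igkv5-43 (17.0% of genes called). Of these, Ighv6-3, Igkv12-46 and Igkv5-43 had 0 counts and Ighv11-2 had 3 counts outside mouse 476. With edgeR run on all genes that had a count, 0 of the 73 members passed, against 11.1% of genes, with 4 at an unadjusted p under 0.05.

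Other genes also had their highest level in mouse 476 by a wide margin. For the 12945 genes with at least 100 counts in that mouse, its level was divided by that of the highest other mouse, with each other mouse set to no less than 3 counts. Ighv11-2 and Igkv14-126 held the first 2 places, a description only, since such members pass the filter through mouse 476 itself. Genes outside the immunoglobulin families in the first 11 places were Ngp, Gm4841, Retnlg, Apol11b, Ly6g and Ccl5, of which Ngp, Retnlg and Ly6g are neutrophil genes. The ratio was 95.4 for Ngp and 76.7 for Retnlg.

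Markers of the cells that make immunoglobulin were mostly low, and many but not all were highest in mouse 476. Ms4a1, which encodes CD20, had 0, 0, 3 and 4 counts in DMSO mice 480 to 483 and 14, 1 and 4 in ABT-263 mice 476, 477 and 478. It was thus highest in mouse 476, at 14 counts.

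Cd79a, part of the B cell antigen receptor, had 6, 6, 2 and 24 counts in the DMSO mice and 50, 5 and 2 in the ABT-263 mice. Among plasma cell genes, Mzb1, an endoplasmic reticulum chaperone of antibody-secreting cells, had 5, 10, 10 and 6 and then 96, 12 and 11 counts. Pou2af1, a B cell coactivator, had 10, 0, 0 and 12 and then 142, 5 and 5, and Derl3, a component of protein quality control in secretory cells, had 9, 3, 9 and 8 and then 87, 27 and 11. These 4 genes were at their highest in mouse 476, with ratios to the other mice far below those of Ighv11-2 and Igkv14-126.

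Tnfrsf17, the plasma cell survival receptor BCMA, did not share that pattern, with 27, 19, 22 and 37 counts in the DMSO mice and 25, 38 and 42 in the ABT-263 mice. Cd5, found on B-1 cells and on T cells, had 103, 51, 52 and 37 and then 103, 181 and 107 counts.

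**Figure D5:**
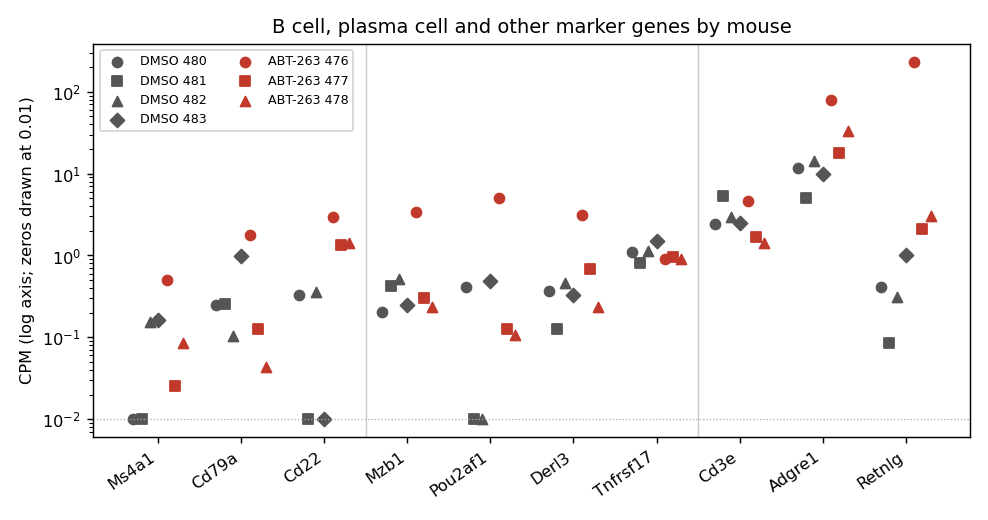
CPM of single marker genes (log axis, zeros drawn at 0.01) in each mouse, with B cell genes on the left, plasma cell genes in the middle and genes of T cells (Cd3e), macrophages (Adgre1) and neutrophils (Retnlg) on the right. Mouse 476 is the highest for Mzb1, Pou2af1, Derl3 and Retnlg, but not for Tnfrsf17 or Cd3e, although 8 of the 12 T cell genes examined were highest in that mouse.

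Over the marker lists, 8 genes of the B cell, plasma cell and B-1 cell lists passed edgeR's test, or 25.0% of the 32 tested, against 24.2% of all genes. In the B cell list 10 of 17 genes were tested and 1 rose, Cd22, a sialic acid-binding inhibitor of B cell signalling (0.172 ± 0.199 CPM, SD, n = 4, to 1.90 ± 0.891 CPM, SD, n = 3). Ebf1, a transcription factor of B cells and also of adipocytes, was the 1 that fell, from between 41.8 and 74.4 CPM in the DMSO mice to between 29.0 and 32.0 CPM in the ABT-263 mice. The list's median log2 fold change was 0.04. Its sum was 81.9 CPM in mouse 476 and reached 115 CPM in another mouse, and 8 of the 17 genes were highest in mouse 476.

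In the plasma cell list 4 of 15 genes rose and none fell, with a median log2 fold change of 0.86. They were Xbp1, a regulator of secretion (85.0 ± 15.7 to 172 ± 42.6 CPM), Cd38, an ectoenzyme of many immune cells (7.73 ± 2.80 to 34.3 ± 35.3 CPM), Tnfrsf13b, the receptor TACI (2.81 ± 1.03 to 7.18 ± 3.11 CPM), and Creb3l2 (16.4 ± 1.85 to 23.1 ± 3.17 CPM). None of these is made by plasma cells alone. Of the 15 genes, 12 were highest in mouse 476. The list's sum was 761 CPM there and 762 CPM in another mouse, of which 335 CPM and 539.7 CPM were Sdc1, a syndecan that keratinocytes also make. Without Sdc1, a choice made after its values were seen, the sum was 426 CPM in mouse 476 and 122 to 268 CPM in the other 6 mice. Prdm1, a regulator of plasma cells that keratinocytes and T cells also use, was at 15.5 ± 6.68 and 26.6 ± 3.97 CPM (edgeR adjusted p = 0.112).

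In the B-1 list 2 of 7 genes tested rose, Ptpn22, a phosphatase of lymphocytes, and Spn, the sialoprotein CD43 of most leukocytes, and the list's median was 1.39. Its sum was 160 CPM in mouse 476 and at most 80.9 CPM elsewhere, and 5 of the 8 genes were highest in mouse 476. The list includes Itgam, which is also in the macrophage list, where all 10 genes were highest in mouse 476. The sum is therefore not particular to B-1 cells. The count of 8 calls over the 3 lists was 5 with edgeR run on all genes that had a count. It was 2, 1 and 2 without DMSO mouse 481, 482 or 483, and 2 and 1 without ABT-263 mouse 476 or 478. Of the 9 genes of immunoglobulin gene rearrangement and mutation, 1 could be tested and 0 passed, by edgeR, by DESeq2 or at an unadjusted p under 0.05. Rag1, of the recombinase, had 0 to 5 counts per mouse.

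Genes that act on secreted immunoglobulin were measured better. Of 9 Fc receptor and transport genes tested, 5 rose and 0 fell, against 12.4% and 11.7% of all genes. Fcgr2b, the inhibitory receptor for IgG, went from 27.9 ± 10.5 to 127 ± 82.9 CPM, a log2 fold change of 2.19 with a standard error of 0.46 (edgeR adjusted p = 0.0173). The activating receptor gene Fcgr3 went from 15.8 ± 5.74 to 112 ± 94.6 CPM (log2 fold change 2.82, standard error 0.56, edgeR adjusted p = 0.0147). Fcgr1, Fcgr4 and Ms4a2, the last encoding the beta chain of the IgE receptor, had log2 fold changes of 2.40, 4.01 and 1.72. Fcgr2b and Fcgr3 passed without each mouse in turn, whereas Fcgr1 and Ms4a2 passed in 2 of 7 such fits and Fcgr4 in 1. Pigr, which carries polymeric IgA and IgM across epithelia, had 0 to 14 counts per mouse and was not tested.

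Of 7 survival and homing genes tested, 3 rose and 0 fell, against 12.4% and 11.7% of all genes. Cxcl12, a chemokine that retains plasma cells, went from 83.3 ± 21.5 to 327 ± 150 CPM, a log2 fold change of 1.97 with a standard error of 0.33 (edgeR adjusted p = 0.00899). Cxcl13, which attracts B cells, and Tnfsf13, the survival factor APRIL, had log2 fold changes of 3.45 and 2.13. With a mouse left out, Cxcl12 passed in all 7 fits, Cxcl13 in 4 and Tnfsf13 in 2. Tnfsf13b, the survival factor BAFF, was at 1.91 ± 0.625 and 3.86 ± 2.20 CPM (edgeR adjusted p = 0.115). Il6 had 2, 0, 9 and 47 counts in the DMSO mice and 1468, 30 and 45 in ABT-263 mice 476, 477 and 478, so it too was high in mouse 476 and otherwise overlapped (edgeR adjusted p = 0.0907).

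Markers of other cells differed in their patterns. Of 10 macrophage genes, 6 rose, against 12.4% of all genes. The list's sum was 451 to 1325 CPM in the DMSO mice and 1521 to 4583 CPM in the ABT-263 mice. The genes that rose were Adgre1, Cd68, Csf1r, Mrc1, Cd163 and Lyz2. Of 6 neutrophil genes tested, S100a8, Csf3r, Mmp9 and Retnlg rose, against the same 12.4% of all genes. The list's sum was 113 to 1831 CPM after DMSO and 5137 to 8654 CPM after ABT-263, with mouse 476 the highest for all 9 genes.

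Of 10 T cell genes tested with edgeR 0 passed, also at an unadjusted p under 0.05, while DESeq2 called 1, and their sum was 85.7 CPM in mouse 476 and at most 58.2 CPM elsewhere, with 8 of 12 genes highest in mouse 476. In the list for lymph node stroma, Glycam1, of high endothelial venules, had 9, 6, 1 and 2 counts in the DMSO mice and 89, 27 and 23 in the ABT-263 mice, and it rose with Cxcl13. The stromal chemokine gene Ccl21a was at 0 in every mouse, as was 1 more gene of that list. Only uniquely aligned read pairs were counted, so a count of 0 does not show that the transcript was absent. Of the 8 muscle genes tested Tnnt3 and Tnnc2 fell, and of the 8 keratinocyte genes tested Krt15 fell, against 11.7% of all genes. Across the 9 lists other than those of the B lineage, with 1 to 10 genes tested in each, 22 genes passed, where 24.2% of all genes tested did. Between 6 and 20 did without each mouse in turn, the fewest without DMSO mouse 483, and 9 did with all genes that had a count in the test. The part of these other cells in the immunoglobulin levels was not tested.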

How the data were processed

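Skin of 7 mice (DMSO n = 4, ABT-263 n = 3) was sequenced. The authors aligned reads to mm10 with STAR 2.7.9a, counted uniquely aligned proper pairs on the same strand for each gene of Ensembl build 109 with featureCounts (Subread 1.6.2), left out mitochondrial genes and deposited the counts without normalization. Reads shared by near-identical V segments are therefore lost, and somatic mutation can lower alignment. For symbols, positions and sequences, GENCODE M21 (GRCm38) was used in place of the authors' annotation, and 55190 of 55450 identifiers matched. The deposited variance-stabilized values and the authors' comparison columns (fold changes and p-values) were not used.

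Counts were scaled to CPM with TMM factors and compared with the two-sided quasi-likelihood test of edgeR 4.0.16 (R 4.3.3, filterByExpr, robust estimation), with Benjamini-Hochberg adjustment over all genes tested and a threshold of 0.05. A standard error is the log2 fold change divided by the square root of its F statistic. The edgeR step was tested on simulated data. Intervals are exact (Clopper-Pearson). The alternatives were DESeq2 1.42.0, its size factors, other filters on low counts, library sizes without immunoglobulin genes and leaving out each mouse.

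The members and lists were chosen with earlier results of these data known. Named genes are Jchain, the constant genes, the leading V segments of each chain and mouse, list genes past the threshold and other marker genes, of which some are not reported here. Other V segments, J segments, Pou2af1, Derl3, Sdc1, Itgam, Cd3e, Rag1, Ccl21a, Ngp, Gm4841, Apol11b, Ly6g and Ccl5 were named after their values were seen. The labels name no batch, and p-values measure the spread between these mice.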

Additional observations from a re-analysis of the deposited data

Results flagged for a closer look

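In the 4 DMSO mice, 27 measures were examined for a sample far from the others, of which 2 stood out where chance gives about 1.35 (1 in 20). The summed lambda V level of mouse 480 was 0.246 CPM against 0 to 0.0411 CPM in the other DMSO mice, a gap of 0.833 of the range, and it rested on 6 counts. The summed level of the B cell list in mouse 481 was 71.8 CPM against 111 to 115 CPM, a gap of 0.918 of the range, and mouse 481 also had the fewest counts of Ighm, Igkc and Jchain.

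J segments lay outside the rule for members, and 6 of them had more counts in ABT-263 mouse 476 than in any DMSO mouse, 5 of these with over 3 counts there. Igkj2 had 86 counts in mouse 476 and 0 in the other 6 mice, and it held 86.9% of the 99 kappa J counts of that mouse (exact 95% interval 78.6% to 92.8%). Igkj1 had 4 counts there and 3 in DMSO mouse 480, Igkj4 had 5 and Igkj5 had 4. Ighj1 had 17 of the 19 heavy J counts of mouse 476, the other 2 being on Ighj3, and 5 in mouse 478. J segments are short, so few read pairs are assigned to them.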

How the results depend on the processing

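No paired analysis was possible because the groups share no replicate numbers. The number of members called was 0 with edgeR's main setting, its size-factor scaling, the stricter filter, library sizes without immunoglobulin genes and every gene tested. It was 1 with DESeq2's default filters and 6 with DESeq2 without them (an alternative chosen after seeing the data). With each mouse left out it was 0 to 1: Ighg2b passed without DMSO mouse 481 (edgeR adjusted p = 0.0379) and Igkv14-126 without ABT-263 mouse 478 (edgeR adjusted p = 0.0478). Igkv14-126 was not tested in the main setting, and 12193 of its 12223 counts were in mouse 476. These settings tested unlike numbers of members: 7 in the main setting, 2 with the stricter filter and 12 without mouse 478. Calls in the B cell, plasma cell and B-1 lists went from 8 to 5 when every gene was tested and to between 1 and 9 with a mouse left out. In the other lists they went from 22 to 9 and to between 6 and 20.

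With a mouse left out, the log2 ratio of geometric mean summed CPM ran from -0.57 to 2.83 for all members, from -0.24 to 2.68 for heavy C, from -1.27 to 3.28 for Igkc, from 0.55 to 5.13 for all V and from -1.21 to 2.97 for Jchain. The lowest of each came without mouse 476, and the ratio for Igkc was also negative (-0.28) without DMSO mouse 481, which had 7 counts of it. The fitted log2 fold change ran from -0.47 to 4.10 for Ighm, from -2.62 to 4.43 for Igkc, from -2.31 to 4.94 for Jchain and from -0.34 to 2.44 for Mzb1, each lowest without mouse 476. For Igha it ran from -0.67 to 0.32 (0.21 without mouse 476 and 0.08 without mouse 478). The median effective number of kappa V segments in the other mice with at least 20 kappa V counts was 3.28, 1.28 when segments under 5 counts were left out, and 1.97 to 4.58 with a mouse left out. Among single genes, 369 alternative values kept direction and call, 124 kept direction and lost the call, 4 gained it and 7 changed direction.

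At 20344364 to 43562330 read pairs per library, 43 of 61 V members had fewer than 10 counts in all, so a segment without a count in a mouse was not detected there, which allows up to 3 counts.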
